A study of Rattus norvegicus with 232 samples.

Results

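The potassium channel genes of the rat brain are described here across inbred strains. They were taken as every row of the RefSeq gene table whose symbol starts with Kcn, without Kcnj13 and Kcne2 and without antisense or overlapping-transcript names, which gave 87 of the 20859 genes of the table. Brain RNA came from untreated inbred rats of the Hybrid Rat Diversity Panel, and the samples were labelled male wherever a sex was given. The study's methods describe young adult males of a subset of these strains, and RNA from 1 side of a brain divided along the midline. The table held 197 animals of 74 strains: 88 animals of 30 HXB/BXH recombinant inbred strains, 43 animals of 19 FXLE/LEXF recombinant inbred strains, and 66 animals of 25 classic inbred strains. The HXB/BXH family was bred from BN-Lx/Cub and SHR/OlaIpcv and the FXLE/LEXF family from F344/Stm and LE/Stm. These parents count among the classic inbred strains. In the study's methods brains of the HXB/BXH strains and their parents were stored in liquid nitrogen. Those of other inbred strains, obtained from vendors, went into RNAlater. Handling of the strains outside that subset is not described there. Sequencing batches were unevenly spread over strains and panels. In comparisons over all strains or among the classic inbred strains, strain cannot be told apart from source and preservation, and only in part from batch. A strain was represented by 3 or more animals in 54 cases, by 2 in 15 and by 1 in 5, and LE/Stm was among the last. The LE/Stm animal stood apart: its 5 liver markers had a mean of 18.86, where all other animals ran from 6.45 to 13.75. Kdm5d, a Y-linked gene, was 9.61, 9.64 and 9.57 in the 3 LEW/Crl animals and 9.32 in HXB17/Ipcv 2, below the 10.21 to 11.39 of the other 193 animals. The Y-linked Eif2s3y and Uty were also lower in these 4 animals than in all others, although all 4 were labelled male. All values are on the log2 scale of the authors' regularized-log transformation. Library medians ran from 8.18 to 8.42, and the depth of the libraries is unknown because no counts were used. In brain tissue measured in bulk, fewer cells of a type and less RNA per cell cannot be told apart.

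Potassium channels let potassium cross the cell membrane, and so set the resting potential, end the action potential and shape repetitive firing. The voltage-gated families (Kcna to Kcnd, Kcnq, Kcnh) open on depolarization, and Kcnf, Kcng, Kcns and Kcnv encode silent subunits that assemble only together with Kcnb partners. Inward rectifiers (Kcnj), leak channels with paired pore domains (Kcnk) and calcium- or sodium-activated channels (Kcnm, Kcnn, Kcnt) complete the pores, while Kcnab, Kcne, Kcnip and the Kcnmb genes encode auxiliary subunits that change gating or surface delivery. In the brain most are neuronal, whereas Kcnj10 and Kcnj16 are known from astrocytes and Kcnj8 from the mural cells of vessels.

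The first question was how much of the variation of each channel gene lay between strains. A strain effect was found for 38 of the 87 genes with limma's F-test at 5% false discovery rate (FDR), which are termed called in what follows, or 43.7%, against 37.3% of all genes tested. The median broad-sense R2, the share of the variance of a gene that lies between strains, was 0.461 over the channel genes and 0.451 over all genes, where 0.372 is expected with no strain effect at these group sizes. No channel gene reached an R2 over 0.7, a level passed by 4.21% of all genes, and 28 of 87 (32.2%) had an R2 over 0.5, against 28.4% of all genes. Among genes above the median level, 26 of the 54 channel genes (48.1%) were called, against 33.5% of all such genes. The strain differences were small in these values. Among the 69 strains with 2 or more animals, the span from the lowest to the highest strain mean was taken on the log2 scale. It had a median of 0.55 for the called genes and 0.54 for the others. The largest span of a called gene was 1.35, for Kcnk15. The count of called genes differed between fits with other animals or another model of the libraries, and the cause was not tested. Leaving out the animals numbered 1, 2 or 3 in the labels gave 10, 7 and 18 called channel genes. These were 11.5%, 8.05% and 20.7% of the channel genes, against 15.9%, 14.4% and 29.1% of all genes, so that the channel share lay below that of all genes in each of these fits and above it with all animals. Fits without the LE/Stm animal, the 3 LEW/Crl animals and HXB17/Ipcv 2 were added after seeing the data. They called 37 channel genes over all strains, 13 in HXB/BXH and 16 in inbred strains. Beside them 35.8%, 18.7% and 18.3% of all genes were called. With the sequencing batch as a covariate and libraries not averaged, 70 channel genes were called (80.5%), against 70.3% of all genes in the same fit.

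**Figure D1:**
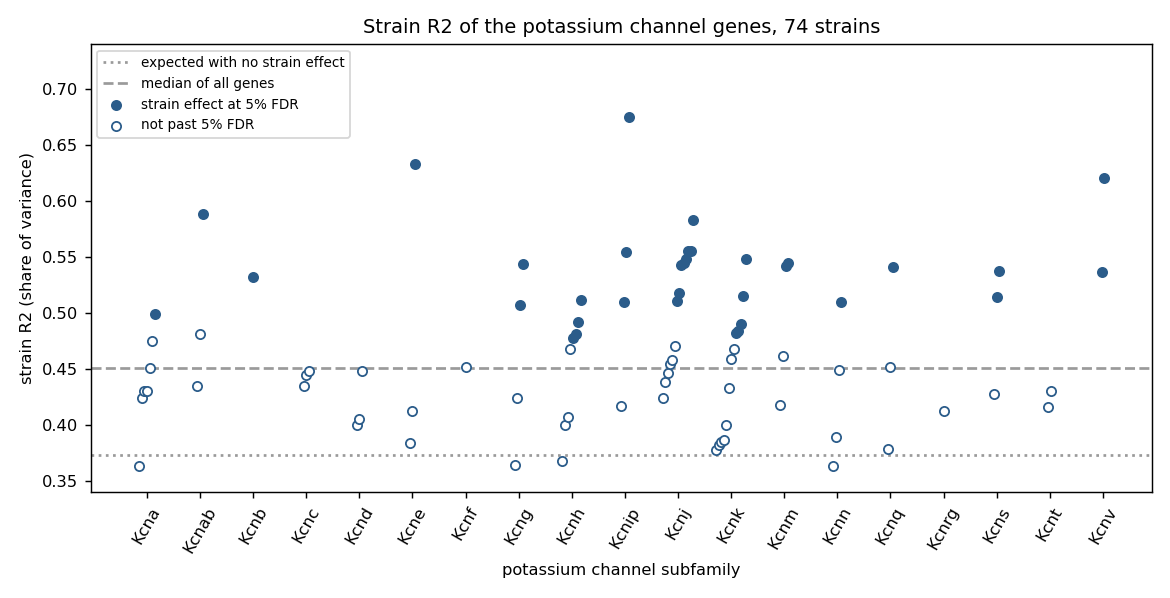
Broad-sense strain R2 of 83 potassium channel genes over 74 strains, by subfamily. Filled points passed 5% FDR, open points did not, the dashed line is the median of all genes (0.451) and the dotted line the value expected with no strain effect (0.372). Kcnip3 stood highest at 0.675, and both Kcnv genes lay above the dashed line.

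The called counts of the voltage-gated pore genes stand beside 37.3% of all genes. Kcnb2, a delayed rectifier of neuronal cell bodies, passed the test with an R2 of 0.532. In the Shaker group Kcna1 passed (R2 0.499) and the other 6 of 7 Kcna genes did not. Kcna1, the axonal channel of episodic ataxia, had its highest mean among strains with 2 or more animals in M520/N, at 13.50 ± 0.02 (SD, n = 3), against a median strain mean of 13.24. None of the 3 Kcnd genes, the A-type channels of dendrites, was called, with R2 from 0.399 to 0.448. For the Kcnh group 4 of 8 genes were called, Kcnh3, Kcnh4, Kcnh5 and Kcnh7, with Kcnh4 highest (R2 0.512) and Kcnh8 lowest of the group (R2 0.367, adjusted p = 0.56). In the Kcnq group Kcnq3, an M-current gene, was called (R2 0.541), while Kcnq5 (0.452) and Kcnq1 (0.378) were not.

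Of the 10 silent subunit genes 6 were called, beside 37.3% of all genes. Kcnv1 (R2 0.537) and Kcnv2 (0.621) were both called, as were Kcng4 (0.544), Kcng3 (0.507), Kcns2 (0.537) and Kcns1 (0.514). Kcnf1 (0.452), Kcng1 (0.364), Kcng2 (0.424) and Kcns3 (0.427) were not.

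Of the inward rectifiers, the subfamily with the most members, 8 of 14 genes were called, with a median R2 of 0.514, beside 37.3% of all genes and their median of 0.451. Kcnj8, the pore of the vascular KATP channel, had the highest value (R2 0.583). It was followed by Kcnj15 (0.555), Kcnj10 (0.555), the G protein-gated channels Kcnj3 (0.548) and Kcnj6 (0.545), Kcnj2 (0.542), Kcnj14 (0.518) and Kcnj16 (0.510). Kcnj12 was the lowest of the group (0.424, adjusted p = 0.198). Of the leak channels 5 of 13 were called, Kcnk1 (0.548), Kcnk6 (0.515), Kcnk15 (0.490), Kcnk9 (0.483) and Kcnk13 (0.482), and Kcnk7 was lowest (0.377). Among calcium-activated channels 2 of 4 Kcnm genes were called, Kcnma1, the large-conductance pore (0.542), and its smooth muscle subunit Kcnmb1 (0.545). Of the 4 Kcnn genes 1 was called, the small-conductance Kcnn2 (0.510). The sodium-activated Kcnt1 and Kcnt2 were not called, with R2 of 0.430 and 0.415, nor was Kcnrg (0.412).

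Auxiliary subunits gave both of the highest values of all 87 genes. Kcnip3, also known as DREAM or calsenilin, is a calcium sensor that binds the A-type channels, and its R2 of 0.675 was the highest (adjusted p = 6.64e-09, limma). Kcne4, an inhibitory single-pass subunit, followed with 0.633 (adjusted p = 7.14e-07). Kcnab3, a cytoplasmic beta subunit, followed after Kcnv2 with 0.588. Of the Kcnip genes 3 of 4 were called, beside 37.3% of all genes, and Kcnip4 was not (0.416). Kcnab2 (0.435), Kcne3 (0.384), Kcne5 (0.412) and Kcnmb2 (0.417) were not called either. Of the 26 named genes past 5% FDR, Kcnip3, Kcne4 and Kcnab3 passed it in every alternative in which they had a value.

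The partner proteins of these channels, a list of scaffolds, sulfonylurea receptors and other associated proteins, held 8 called genes among the 27 in the table (29.6%), beside the 37.3% of all genes. Called were Cntnap2 and Cntn2, which hold Kv1 channels beside the node of Ranvier, the ankyrin Ank3, the KATP receptor Abcc9, the large-conductance channel subunit Lrrc55, and Vapb, Tmem38b and Pex5l. Dlg4, Dlg2, Dpp6 and Dpp10 were not called, with R2 from 0.359 to 0.434.

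The promoter windows of Kcnip3 and Kcnv2, from RefSeq on the GRCr8 assembly and reaching from 250 bases before to 50 bases after the start, are shown because these genes held 2 of the 3 highest R2 values. Capitals mark the GC box GGGCGG, the TATA box TATAAA and the CCAAT box on either strand. The Kcnip3 window (chr3:135195361-135195660, minus strand) held 1 GGGCGG and the Kcnv2 window (chr1:234412924-234413223, plus strand) held 1 as well. GGGCGG occurred in 33.1% of all 33469 RefSeq promoter windows and in 34 of the 64 windows of the 58 channel genes that had one (53.1%). TATAAA occurred in 14.2% of all windows and in 1 of these 64, and CCAAT in 37.5% of all and in 17 of 64.
Kcnip3: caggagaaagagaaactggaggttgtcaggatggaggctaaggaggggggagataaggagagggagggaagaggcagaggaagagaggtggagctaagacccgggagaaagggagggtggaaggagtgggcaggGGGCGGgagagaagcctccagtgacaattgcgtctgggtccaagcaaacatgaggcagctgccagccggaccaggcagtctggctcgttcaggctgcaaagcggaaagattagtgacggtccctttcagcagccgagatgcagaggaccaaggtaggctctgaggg
Kcnv2: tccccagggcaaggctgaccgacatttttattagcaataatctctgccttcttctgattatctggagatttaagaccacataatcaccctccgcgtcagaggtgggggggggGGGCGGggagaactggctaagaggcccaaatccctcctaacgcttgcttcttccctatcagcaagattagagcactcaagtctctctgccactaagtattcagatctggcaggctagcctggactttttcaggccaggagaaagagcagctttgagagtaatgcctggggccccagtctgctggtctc

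Kcnip3 (rn6 chromosome 3, 120023917 to 120087136, minus strand, a gene of 9 exons in its Ensembl transcript) had a median strain mean of 11.28. Its lowest strain was HXB23/Ipcv at 10.96 ± 0.20 (SD, n = 3) and its highest SR/JrHsd at 11.55 ± 0.13 (SD, n = 3), a span of 0.59. It stood apart from the mean of the other strains in 4 strains, lower in HXB23/Ipcv, MWF/Hsd and BN-Lx/Cub and higher in SR/JrHsd (limma, 5% FDR over all genes and strains). The 3 MWF/Hsd animals had 10.84, 11.01 and 11.08, and the 3 SR/JrHsd animals had 11.44, 11.53 and 11.69. These groups did not overlap, but they were picked because they stood apart in opposite directions. In HXB23/Ipcv the neuron, striatal, olfactory bulb, mural and partner lists each ranked 4 of 74 from the lowest, with 0 markers apart. The choroid plexus list ranked 67 and the liver list 68. Over the channel genes the median difference of HXB23/Ipcv to the mean over strains was -0.09, with 19 of 87 genes above that mean. Their part in the Kcnip3 result was not tested. The Kcnip3 strain effect was present within both larger panels, with R2 of 0.645 among the HXB/BXH strains and 0.752 among the inbred strains. At the transcript level 3 of the 4 Kcnip3 transcripts in the table were called, and the most abundant had an R2 of 0.642 (adjusted p = 3.41e-06), the highest of all channel transcripts.

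Kcnv2 encodes a silent subunit best known from photoreceptors, and its level in these brains was low, with a median strain mean of 2.40. In MWF/Hsd the 3 animals had 3.20, 3.22 and 3.40, whereas the other 73 strain means ran from 2.08 to 3.04. The difference to the mean of the other strains was 0.86 (adjusted p = 9.42e-07), the largest of any channel gene in a strain. HXB24/Ipcv was higher by 0.62, with animals at 2.62, 3.11 and 3.41, and LEXF7B/Stm by 0.59, with animals at 2.87, 3.05 and 3.12. Over the alternatives the HXB24/Ipcv difference ran from 0.20 to 1.65 and that of LEXF7B/Stm from 0.54 to 1.59. The HXB24/Ipcv animals overlapped with those of both other strains, while the MWF/Hsd animals all lay above the LEXF7B/Stm animals. Kcnv2 (rn6 chromosome 1, 245396989 to 245416531, plus strand, 2 exons) was the only channel gene called in both recombinant families. The share of all genes called in both was not counted, and the counts in each family changed with the animals used, as given below.

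Single strains were then compared with the mean of all others. Of 6438 pairs of a channel gene and a strain, 28 passed 5% FDR (0.435%), against 1.2% of all pairs tested, and they fell on 19 genes and 19 strains. In 18 pairs the strain was higher and in 10 it was lower. At least 1 strain stood apart for 19 of the 87 genes (21.8%), against 25.2% of all genes. In 0 of the 28 pairs did the animals of the strain lie beyond every animal of the other strains, beside 2.48% of the 18592 called pairs of all genes. Kcnv2 in MWF/Hsd was the only pair that passed 5% FDR in every alternative in which it had a value. With the animals numbered 1, 2 or 3 left out, 3, 6 and 10 pairs passed (0.0472%, 0.0985% and 0.155%, against 0.502%, 0.391% and 0.664% of all pairs), and with batch as a covariate and libraries not averaged, 315 passed (4.89%, against 5.3% of all pairs).

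**Figure D2:**
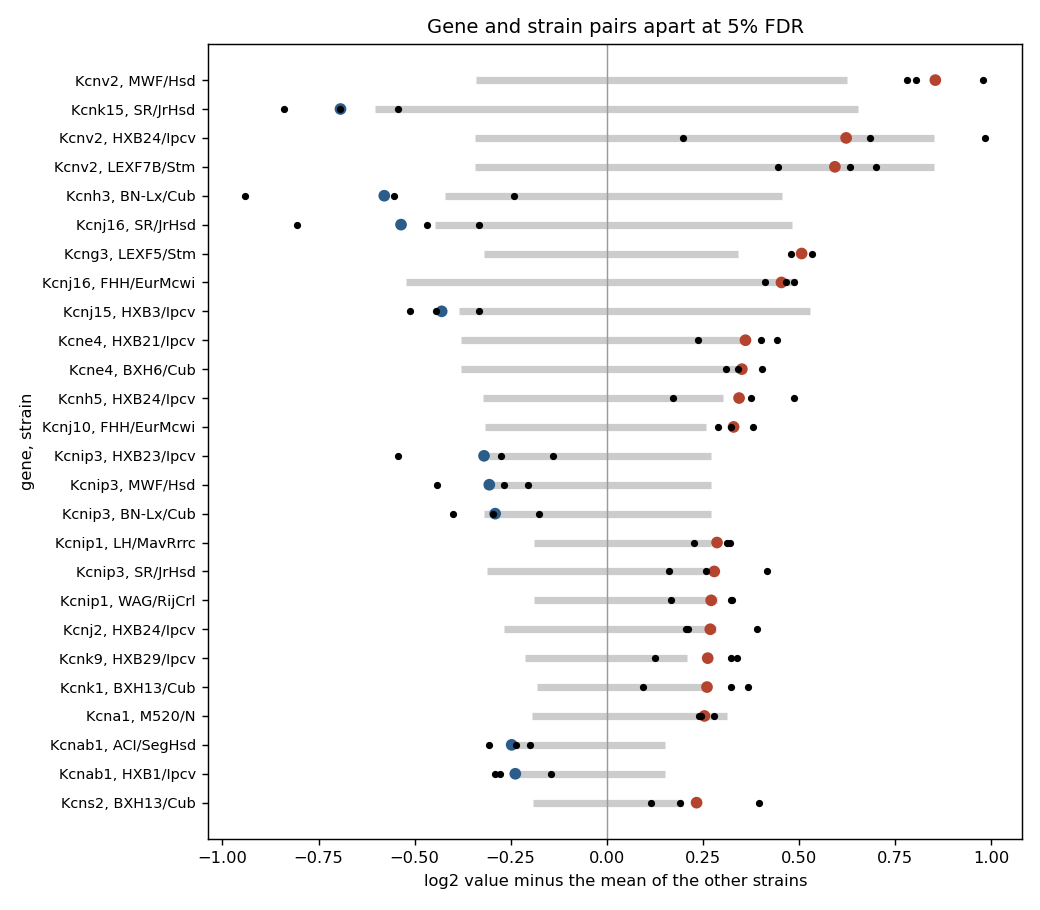
Pairs of a channel gene and a strain past 5% FDR (26 of 28), by log2 value minus the mean of the other strains. Large points are the strain's mean (red higher, blue lower), black points its animals and grey bars the range of the other strain means. Kcnv2 in MWF/Hsd lay farthest from 0, at 0.86.

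FHH/EurMcwi was high for Kcnj10 and Kcnj16, which encode Kir4.1 and Kir5.1, subunits that combine in 1 channel of astrocytes. The Kcnj10 animals had 12.79, 12.83 and 12.88, beside other strain means from 12.19 to 12.76, a difference of 0.33 (adjusted p = 0.0066). Kcnj16 was at 10.82, 10.87 and 10.90, beside other strain means from 9.89 to 10.90, a difference of 0.45 (adjusted p = 0.025). FHH/EurMcwi ranked first of 74 strains for Kcnj10 and second for Kcnj16, after LEXF9/Stm, which was measured in 1 animal. The lowest Kcnj10 mean was that of LEXF5/Stm, 12.19 ± 0.17 (SD, n = 2), whose astrocyte markers had the second lowest mean of 74 strains (13.33). None of the 6 astrocyte markers in the list stood apart in FHH/EurMcwi. Their mean of 13.52 lay within the range of the other strains, 13.32 to 13.68, and ranked 44 of 74 from the lowest. In FHH/EurMcwi the thalamus list ranked 68, the striatal list 11 and the endothelial list 12, with 0 markers apart. The part of cell composition in the Kcnj10 and Kcnj16 values of these strains was not tested. Both differences were lost when the animals numbered 1, 2 or 3 were left out (adjusted p from 0.0628 to 0.147 for Kcnj10 and from 0.106 to 0.215 for Kcnj16) and in the table of reconstructed genes, though their sizes there were 0.31 or more. Both promoter windows are shown because the genes moved together in this strain. The Kcnj10 window (chr13:87334260-87334559, plus strand, GRCr8) held 2 GGGCGG and 2 CCAAT, and the Kcnj16 window (chr10:96517074-96517373, plus strand) held no GGGCGG and 2 CCAAT.
Kcnj10: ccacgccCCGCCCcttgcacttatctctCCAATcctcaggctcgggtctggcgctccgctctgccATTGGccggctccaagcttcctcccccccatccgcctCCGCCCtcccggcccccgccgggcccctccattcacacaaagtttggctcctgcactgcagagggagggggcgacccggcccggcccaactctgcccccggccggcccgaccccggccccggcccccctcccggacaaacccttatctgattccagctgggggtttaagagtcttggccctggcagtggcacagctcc
Kcnj16: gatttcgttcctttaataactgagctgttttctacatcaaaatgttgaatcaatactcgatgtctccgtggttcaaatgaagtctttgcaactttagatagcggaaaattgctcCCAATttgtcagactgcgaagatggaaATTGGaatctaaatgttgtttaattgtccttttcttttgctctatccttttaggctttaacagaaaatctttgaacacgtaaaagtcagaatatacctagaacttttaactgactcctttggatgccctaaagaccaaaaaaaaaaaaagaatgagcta

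**Figure D3:**
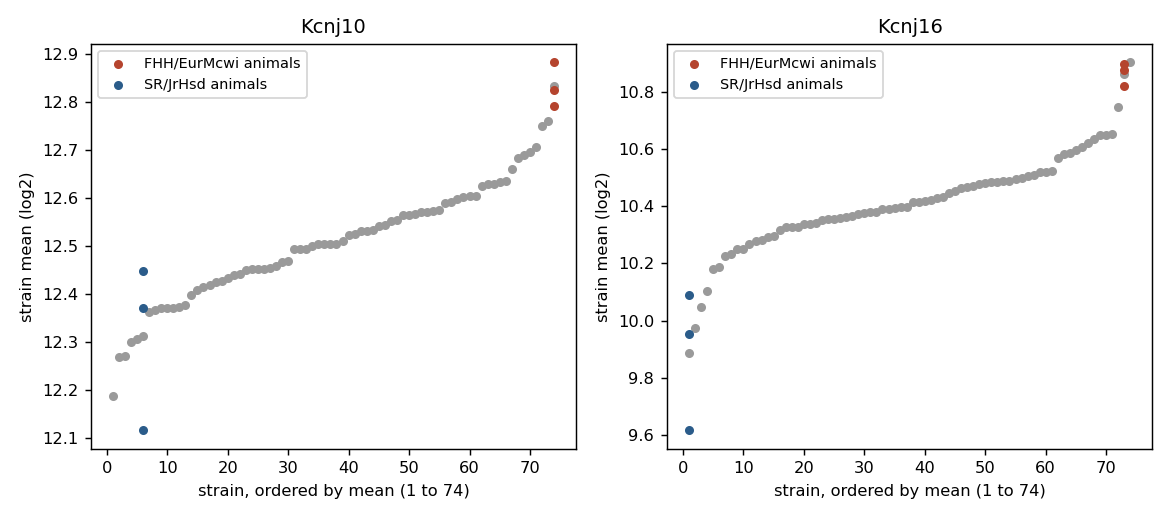
Strain means of Kcnj10 and Kcnj16 (log2) for 74 strains, each ordered from the lowest to the highest. Grey points are strain means, red points the animals of FHH/EurMcwi and blue points those of SR/JrHsd. The FHH/EurMcwi animals are at 12.79 to 12.88 for Kcnj10, where their mean is the highest, and at 10.82 to 10.90 for Kcnj16, where it is second to LEXF9/Stm.

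SR/JrHsd was lowest of all strains for Kcnk15 and Kcnj16 and highest for Kcnip3. Kcnk15, a leak channel subunit, had 4.99, 5.14 and 5.29 in its animals, a difference of -0.69 to the mean of the other strains (adjusted p = 0.032), and Kcnj16 had 9.62, 9.95 and 10.09, a difference of -0.54 (adjusted p = 0.0037). Regional markers also differed in SR/JrHsd. The 6 olfactory bulb markers had a mean of 5.80, below the other strains (6.11 to 7.17), and 4 of them were lower at 5% FDR. The thalamus, hypothalamus and pineal markers were lowest of 74 as well, at 10.45, 6.86 and 3.58, with 1 of 5 thalamus markers lower at 5% FDR. The pituitary markers ranked 2 from the lowest, and the striatal markers were highest at 10.76. Of the 4 blood markers 2 were higher. The part of these marker differences in the channel results was not tested.

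HXB24/Ipcv had 3 genes apart, Kcnv2, Kcnh5 and Kcnj2, all higher, which was 3.45% of the channel genes against 1.51% of all genes in that strain. Kcnh5, an ether-a-go-go channel, had 11.99, 12.19 and 12.30 (difference 0.34) and Kcnj2 had 9.47, 9.47 and 9.65 (difference 0.27). In BXH13/Cub Kcnk1 and Kcns2 were higher by 0.26 and 0.23, and 4 of 6 oligodendrocyte markers were lower, with the lowest list mean of 74 strains (14.49, beside 14.52 to 15.14). In HXB29/Ipcv Kcnk9 was higher by 0.26, and 2 of 4 blood markers were higher. Kcnip1 was higher in LH/MavRrrc (9.49, 9.57 and 9.58) by 0.29 and in WAG/RijCrl (9.43, 9.58 and 9.59) by 0.27. Kcnab1, a beta subunit of Kv1 channels, was lower in ACI/SegHsd and HXB1/Ipcv by 0.25 and 0.24, although its F-test over all strains narrowly missed the threshold (adjusted p = 0.0503). Lower values were also found for Kcnj15 in HXB3/Ipcv, with 3.92, 3.99 and 4.10. Kcng3 was highest in LEXF5/Stm, with 6.80 and 6.85 beside other strain means of 6.00 to 6.66. Kcne4 was higher in HXB21/Ipcv and BXH6/Cub by 0.36 and 0.35, and Kcna1 in M520/N by 0.25. In BXH6/Cub the cerebellar, thalamic and liver markers each ranked 72 of 74 from the lowest, and 1 of 7 cerebellar and 1 of 6 olfactory bulb markers were higher at 5% FDR. In HXB24/Ipcv 1 of 6 astrocyte markers was lower, in LH/MavRrrc 1 of 6 was higher, and in WAG/RijCrl the astrocyte and mural lists had the lowest means of 74 strains. In HXB1/Ipcv 1 of 6 microglia markers was lower, and in M520/N 1 of 5 endothelial markers. The part of these markers in the channel results was not tested.

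Without a test, it was also counted which strain held the extreme mean of each gene among the 69 strains with 2 or more animals. LEXF5/Stm, with 2 animals, was highest for 16 of the 87 genes (18.4%, against 6.47% of all genes). LEXF1C/Stm, also with 2, was highest for 9 (10.3%, against 6.59%), and BN-Lx/Cub was lowest for 11 (12.6%, against 7.22%). In LEXF5/Stm 64 of 87 genes lay above the mean over strains, as did 65 in HXB13/Ipcv and 64 in BXH13/Cub. The median difference in LEXF5/Stm was 0.14, with 0.06 in one animal and 0.21 in the other, while the median over all genes was near 0 (-0.005). Its neuron markers had the second highest mean of 74 strains (14.08) and its blood markers the lowest (11.72), with 0 markers of either list apart. In LEXF5/Stm 1 of 6 mural markers and 1 of 27 channel partners were lower at 5% FDR, and the microglia list ranked 2 from the lowest. The part of these markers in its channel values was not tested. BN-Lx/Cub had a median difference of -0.09, and its animals differed among themselves: their medians over the channel genes ran from -0.23 to 0.03. Replicate 1 was the lowest of the 3 for Kcnh3, a voltage-gated channel of the forebrain (9.99, beside 10.37 and 10.68), and for Kcnab2, a beta subunit (12.49, beside 12.99 and 13.32). Kcnh3 in BN-Lx/Cub was lower by 0.58 than the mean of the other strains (adjusted p = 0.027), and without replicate 1 by 0.40 (adjusted p = 0.37). In this strain the striatal markers ranked 5 of 74 from the lowest, with 1 of 6 lower at 5% FDR, and the neuron markers ranked 2, with 0 of 6 apart. Of the astrocyte markers 1 of 6 was lower, of the oligodendrocyte markers 1 of 6 was higher, of the microglia markers 1 of 6 was lower and 1 higher, and 2 of 27 channel partners were lower. Their part in the result was not tested.

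The panels were next fitted separately. Among the HXB/BXH strains 13 channel genes had a strain effect (14.9%, against 19.1% of all genes), among the FXLE/LEXF strains 4 (4.6%, against 4.61%) and among the classic inbred strains 19 (21.8%, against 19.3%). These counts moved by more than 1.5 times with the animals used. Without the animals numbered 1, 2 or 3 there were 1, 4 and 5 genes in HXB/BXH (8.04%, 9.31% and 8.26% of all genes), 0, 0 and 9 in FXLE/LEXF (0.599%, 0.288% and 6.52% of all genes) and 6, 3 and 11 in inbred strains (10.4%, 5.75% and 11.5% of all genes). With batch as a covariate and libraries not averaged there were 30, 2 and 46 (32.1%, 5.22% and 45.7% of all genes), and with the reconstructed genes 8, 0 and 1 of 78 (12.5%, 1.57% and 8.14% of all genes). In the FXLE/LEXF family these were Kcnv2, Kcnv1, Kcng3 and Kcnh5, the first 3 of them silent subunits. Kcne4, Kcnip3, Kcnj15, Kcnj8 and Kcnv2 were called both in the HXB/BXH and in the inbred strains. Called in the HXB/BXH strains alone were 8 genes, among them Kcnab3, Kcnh3, Kcnj14, Kcnj6, Kcnk9 and Kcnmb1. In the inbred strains alone there were 14, among them Kcnk1, Kcnj10, Kcnj16, Kcnj3 and Kcnip1. A call in 1 panel only does not show that the strain effects differ between panels, which was not tested. Kcnj5, a G protein-gated channel, was called only within the inbred strains (R2 0.678) and not over all strains (0.458). For 9 genes, such as Kcnma1, the effect passed over all strains and in no panel alone. The shares of all genes with these combinations of panels were not counted, so these counts cannot be set against all genes.

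**Figure D4:**
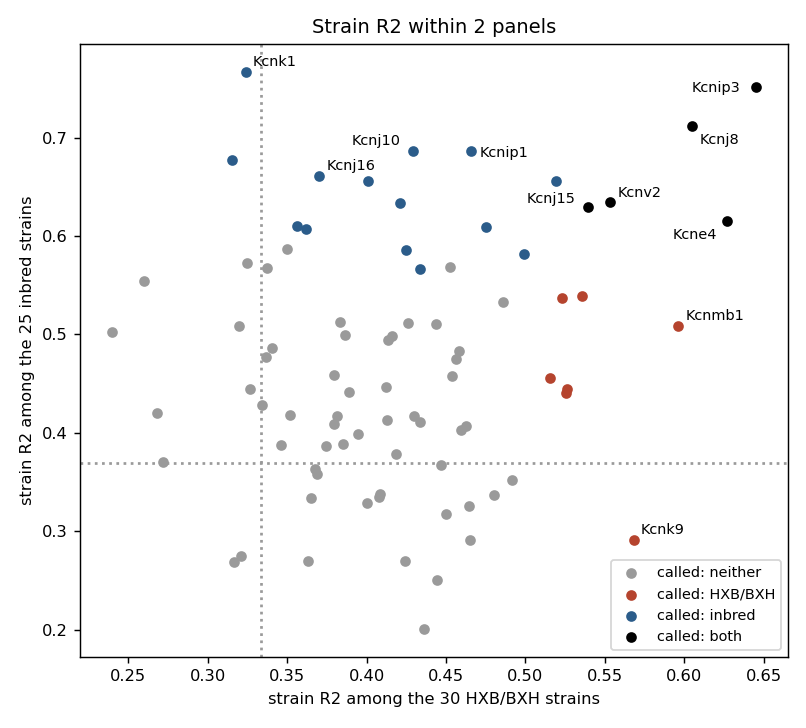
Strain R2 of 83 channel genes among the 30 HXB/BXH strains (x axis) and among the 25 inbred strains (y axis). Colours give the panels in which the gene passed 5% FDR, and dotted lines are the values expected with no strain effect. Kcnip3 is high on both axes (0.645 and 0.752), while Kcnk1 is highest among inbred strains (0.767) and at 0.324 among the HXB/BXH strains.

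Whether the parents of the recombinant families differ was asked next. Between BN-Lx/Cub (3 animals) and SHR/OlaIpcv (2 animals, 18 libraries) 1 of 87 channel genes differed at 5% FDR (1.15%), against 4.51% of all genes. At an unadjusted p under 0.05 there were 15 of 87, against 19.2% of all genes. The median absolute difference was 0.13 over the channel genes and 0.14 over all genes. Between F344/Stm (3 animals) and LE/Stm (1 animal) 0 of 87 channel genes differed in limma's test, with 0.796% of all genes called. Here 13 of 87 had an unadjusted p under 0.05, against 12.8% of all genes, the smallest adjusted p was 0.23, and the lone LE/Stm animal was assumed to vary like the other strains. The largest of these differences was that of Kcnj15, which was 4.31 ± 0.04 (SD, n = 3) in F344/Stm and 4.96 in the LE/Stm animal. This animal is the one with the raised liver markers. The v5 table of Ensembl genes, normalized separately, held LE/Stm animals 1 and 3 in its place, and there 3 of 80 channel genes differed from F344/Stm (beside 3.62% of all genes). Kcnj15 was again higher in LE/Stm, at 3.49 and 3.42 beside 3.02 to 3.05 in F344/Stm (difference -0.42 ± 0.06, SE, adjusted p = 4.28e-07). Kcnk10, a leak channel also known as TREK-2, was higher in LE/Stm, at 10.66 and 10.69 beside 9.50 to 9.92. Kcnip1 was lower in LE/Stm, at 8.94 and 8.95 beside 9.17 to 9.39. With LE/Stm animal 2 in the main table, F344/Stm minus LE/Stm was -0.44 for Kcnk10 and 0.05 for Kcnip1 (adjusted p = 0.38 and 0.87, limma). The mean of 4 liver markers was 9.92 in LE/Stm animal 1 and 14.95 in animal 3. The other strains' animals ran from 5.79 to 12.05 with a median of 6.76.

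Kcnk1 (TWIK-1, a leak channel) was that gene, and it was lower in BN-Lx/Cub, as were 1.87% of all genes. It lies on rn6 chromosome 19, 58823836 to 58862926, plus strand, and its Ensembl transcript has 4 exons. The BN-Lx/Cub animals had 11.40, 11.46 and 11.61 and the SHR/OlaIpcv animals 11.84 and 11.90. These groups did not overlap, but the gene was picked because they differed. Of the cell type markers all 4 blood markers, Snap25 (neurons), Mobp (oligodendrocytes), Aqp1 (choroid plexus) and Abcc9 (mural cells) also differed between these parents at 5% FDR, and their part in the result was not tested. The difference was -0.38 ± 0.10 (SE; adjusted p = 0.012, limma). SHR/OlaIpcv had the highest mean of all 74 strains. The related SHRSP/A3NCrl and WKY/NCrl lay lower, at 11.58 and 11.55, and the BN substrain BN/NHsdMcwi stood at 11.72 ± 0.07 (SD, n = 3), above BN-Lx/Cub. The most abundant of 3 Kcnk1 transcripts differed in the same direction, by -0.51 (adjusted p = 0.045), as the only channel transcript called in this contrast. Over 21 alternatives the difference ran from -0.46 to -0.08, with adjusted p up to 0.793, and was nearest 0 in the v5 table of Ensembl genes. The call did not hold in 12 of them, including those without BN-Lx/Cub replicate 1 (-0.36, adjusted p = 0.066) or without either SHR/OlaIpcv animal (adjusted p = 0.086 and 0.25), and with batch as a covariate and libraries not averaged the difference was -0.22 (adjusted p = 0.052).

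In the recombinant strains the parental difference of Kcnk1 did not come with a detected strain effect. The 30 HXB/BXH strain means ran from 11.49 to 11.86 with a median of 11.65. Of these, 29 lay between the parental means and 1 below both, 17 nearer to BN-Lx/Cub and 13 nearer to SHR/OlaIpcv. The gene was picked because its parents differed, and SHR/OlaIpcv was the highest of all strains, so none lay above both. The same counts over all genes were not made. The means formed a single cluster in the mixture fit. Kcnk1 had an R2 of 0.324 among them, close to the 0.333 expected with no strain effect (adjusted p = 0.64), whereas it had the highest inbred R2 of all channel genes, 0.767 (adjusted p = 0.000191).

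**Figure D5:**
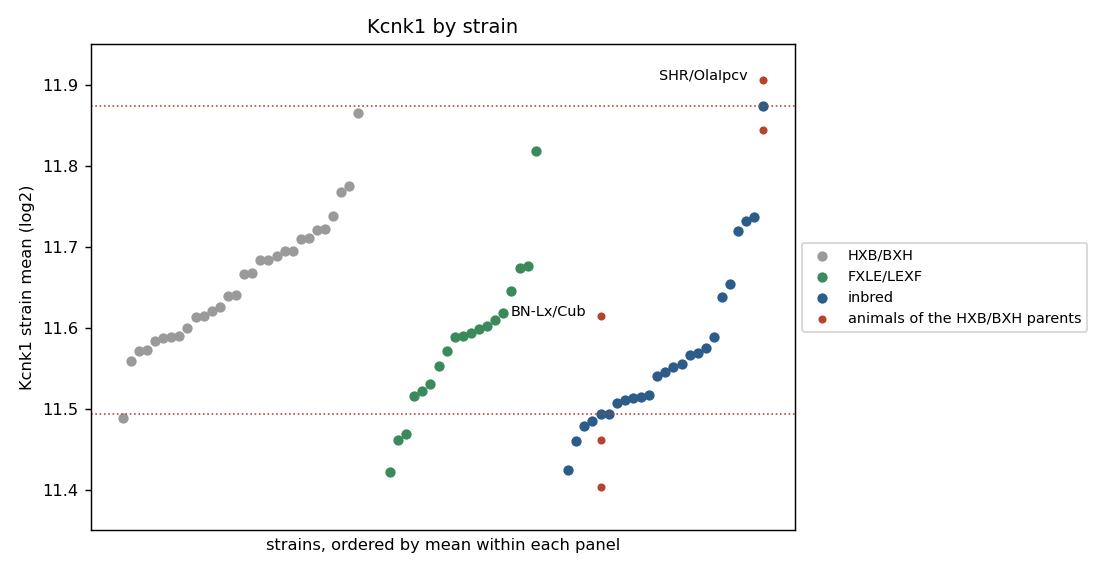
Kcnk1 strain means (log2) in the HXB/BXH, FXLE/LEXF and inbred strains, ordered within each panel. Red points are the animals of BN-Lx/Cub and SHR/OlaIpcv and the dotted lines their means. All but 1 of the 30 HXB/BXH strains lie between these lines, for a gene picked because these parents differed.

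Of the 13 channel genes called in the HXB/BXH strains 0 differed between the parents at 5% FDR in limma's test, beside 17.3% of all 3992 genes called there. For Kcne4 the parents were at 6.62 ± 0.23 (SD, n = 3) in BN-Lx/Cub and 6.49 in SHR/OlaIpcv, and 16 recombinant strains lay below both and 6 above both, up to 6.84 in HXB21/Ipcv. Kcnj8 had 6 strains below, 19 between and 5 above, from 6.80 to 7.37. Kcnip3 had 21 of 30 strains above both parents, up to 11.54 in BXH10/Cub. Kcnmb1 had 20 of 30 below both. For Kcnk9 (TASK-3, a leak channel of cerebellar granule cells) all 30 recombinant strains lay above both parental means. These counts compare strain means and carry their error, and the same counts over all genes were not made. Over the channel genes the median difference to the mean over strains was -0.09 in BN-Lx/Cub and -0.07 in SHR/OlaIpcv. Each parent had 30 of 87 genes above that mean. Kcng1 and Kcnab2, not called in this family, also had 29 and 28 of 30 strains above both parents, while Kcnip4 had 19 below both.

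More than 1 cluster of HXB/BXH strain means was found for 7 channel genes in the mixture fit (8.05%, against 11.7% of all genes): Kcnj6, Kcnj14, Kcnmb4, Kcnk5, Kcnd3, Kcnn1 and Kcna7. All had 2 clusters. Kcnj6 and Kcnj14 were also called by the F-test in this family. Kcnj14 split into 6 and 24 strains and Kcnj6 into 11 and 19. The Kcna7 split set 1 strain, HXB2/Ipcv, against 29. None of the 7 remained when the Bayesian information criterion had to improve by more than 6.

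The vascular KATP channel joins Kcnj8 with the receptor Abcc9, and the genes are neighbours on rn6 chromosome 4. The Kcnj8 transcript spans 176782498 to 176789304 and that of Abcc9 176805431 to 176909075, both on the minus strand, with 16126 bases between them. Abcc9 had an R2 of 0.635 and Kcnj8 0.583, and F344/NCrl had the highest strain mean of both, 7.40 ± 0.09 (SD, n = 2) for Kcnj8 and 9.37 ± 0.04 (SD, n = 2) for Abcc9. The Kcnj8 animals of F344/NCrl had 7.34 and 7.46, those of F344/NHsd 7.12, 7.13 and 7.40, and those of F344/Stm 6.84, 6.85 and 7.08. Abcc9 was lower in BN-Lx/Cub than in SHR/OlaIpcv by 0.38 ± 0.12 (SE; adjusted p = 0.046). Kcnj8 differed by -0.27 ± 0.14 (SE), which did not pass (adjusted p = 0.28). Its animals had 6.84, 7.03 and 7.14 in BN-Lx/Cub and 7.18 and 7.37 in SHR/OlaIpcv. Abcc9 is itself among the 6 mural cell markers of the list, of which 4 had a strain effect.

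Transcripts were tested as a further readout. Of 187 RefSeq transcripts matched to 83 channel genes, 25 had a strain effect (13.4%, against 13.9% of all 45918 transcripts). They belonged to 20 genes, 17 of which were also called at the gene level (85%, against 81.2% over all genes with a called transcript). No channel transcript had an R2 over 0.7, against 1.7% of all transcripts. Kcna2, Kcnc2 and Kcng1 were called only for a transcript. In each of them the transcript was not the most abundant: for Kcna2 it was the second of 5 (R2 0.553, beside 0.430 for the first) and for Kcnc2 the second of 6 (0.543, beside 0.417). For Kcnh5 the second of 2 transcripts was called (0.600) and the first was not (0.466). Transcript levels were estimated by the authors from reads that isoforms share, so that isoforms of 1 gene are not independent. For 21 of the 38 called genes no transcript passed (55.3%, against 48.9% of all called genes with transcripts).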

How the data were processed

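Brain libraries of rRNA-depleted total RNA from 74 rat strains were used. The deposited values are log2 values: per the study's methods, described for its v5 tables, the authors estimated counts with RSEM on strain-specific rn6, adjusted them for 1 factor of unwanted variation and applied the regularized-log transformation. The alignment behind the v7.1 RefSeq tables used here is not given in the sources used here. Depth is unknown, so no interval for counting error is given. Spike-ins (73 features) were left out and libraries of an animal averaged (214 libraries, 197 animals). R2 divides the sum of squares between strains by the total. Strain effects (moderated F-test), parental contrasts and each strain against the mean of the others were fitted with limma 3.58.1 over all 20859 genes, two-sided, with Benjamini-Hochberg adjustment at 5%. Clusters of strain means used mclust 6.1.1 (1 to 3 equal-variance components). The procedure was tested on simulated data. Named genes were the 10 highest R2 among called genes, the 10 and 5 largest called differences of the HXB/BXH and FXLE/LEXF parents, the genes of the 10 largest called pairs, and the highest and lowest R2 of each subfamily. Other genes were named after their values were seen. The members and lists were chosen with earlier results of these data known. Animals of a strain are separate by their labels, and whether same-numbered animals deviate together was checked (mean r 0.0236 over 192 animals, against -0.0114 for different numbers), so the numbers were not taken as pairs. Results of 4 single genes are not reported here. Alternatives were other tables, scalings, filters, batch terms and left-out animals.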

Additional observations from a re-analysis of the deposited data

How the results depend on the processing

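Of 45 named genes, 26 passed 5% FDR over all strains, and Kcnip3, Kcne4 and Kcnab3 did so in every alternative that gave a value. No sign reversed. Single-gene results kept their side of the threshold in 961 cases, lost it in 226 and gained it in 27. The cause was not tested for any of the changes that follow. The R2 expected with no strain effect depends on the numbers of strains and animals, and rises with fewer animals per strain. It was not computed for the alternatives, so median R2 values of fits with other animals, libraries, strains or covariates are not directly comparable. Leaving out 1 animal number gave 7 to 18 genes over all strains (38 with all animals), 1 to 5 in HXB/BXH, 0 to 9 in FXLE/LEXF, 3 to 11 in inbred strains, 3 to 10 pairs, 4 to 8 genes with clusters and a median R2 of 0.607 to 0.620. Without BN-Lx/Cub replicate 1 alone, left out of all fits after seeing the data, these were 38, 13, 4 and 20 genes. Beside them 36.1%, 19.1%, 4.61% and 19.9% of all genes were called. There were 27 pairs, beside 1.18% of all pairs, 7 genes with clusters and a median R2 of 0.462. In the fits without 1 animal number the called share of the channel genes over all strains was below that of all genes, and in the other fits above it. Leaving out animals gave 0 to 4 genes between BN-Lx/Cub and SHR/OlaIpcv.

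Without the LE/Stm and LEW/Crl animals and HXB17/Ipcv 2, also chosen after seeing the data, 30 pairs were called, beside 1.2% of all pairs. There 6 genes had clusters and the median R2 was 0.464 (0.461 with all animals).

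With the replicate block, 39 genes were called over all strains, 0 between BN-Lx/Cub and SHR/OlaIpcv, and the median R2 was 0.473. The block changed no other count by over 1.5 times.

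With the batch characteristic as a covariate and libraries not averaged, both steps changed at once in the fits that held classic inbred strains. In HXB/BXH and FXLE/LEXF each animal had 1 library, so that only the batch term changed there. These fits called 70 genes over all strains, 30 in HXB/BXH, 2 in FXLE/LEXF and 46 in inbred strains. Beside them 70.3%, 32.1%, 5.22% and 45.7% of all genes were called. Between BN-Lx/Cub and SHR/OlaIpcv 6 genes were called. There were 315 pairs, beside 5.3% of all pairs, and the median R2 was 0.532. The batch of the titles, which differs in 26 samples and was chosen after seeing the data, gave 63, 25, 2, 40 and 4 genes. With it 205 pairs were called, and the median R2 was 0.512. Over all strains and in the 3 panels 62.4%, 26.5%, 5.22% and 37.1% of all genes were called, and 3.21% of all pairs. With genes above the median level alone there were 6, 2 and 11 of 54 genes in the 3 panels. Beside them 14.7%, 3.68% and 12.2% of all such genes were called. There were 13 pairs, beside 0.623% of all such pairs, 4 genes with clusters and a median R2 of 0.476. With 1 library per animal the parental count was 0. The reconstructed genes gave 25, 8, 0 and 1 of 78 genes and 0 between BN-Lx/Cub and SHR/OlaIpcv. Over all strains and in the 3 panels 19.8%, 12.5%, 1.57% and 8.14% of all reconstructed genes were called. The v5 table, with 45 strains and 0 of FXLE/LEXF, gave 63 of 80 genes and 32 in inbred strains. Beside them 63.6% and 34.3% of all its genes were called. It gave 202 pairs, beside 5.73% of all its pairs. Between the parents of the families 2 and 3 genes were called, 13 genes had clusters and the median R2 was 0.509. The v6 table, with 58 strains of which 5 are FXLE/LEXF (13 animals), gave 7 of 81 genes in HXB/BXH and 15 in FXLE/LEXF. Beside them 16.3% and 15.7% of all its genes were called. It gave 0 between BN-Lx/Cub and SHR/OlaIpcv and a median R2 of 0.433. With a BIC gain over 6 no gene had clusters (0). For clusters and parental contrasts no shares of all genes were counted in these alternatives, apart from F344/Stm and LE/Stm in the v5 table. The contrast of F344/Stm and LE/Stm had no value where LE/Stm was left out.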

Other observations

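Marker lists were counted for the strain effect by the same test, beside 37.3% of all genes. All 4 blood, 6 microglia and 5 liver markers were called, as were 5 of 6 striatal, 5 of 6 oligodendrocyte, 4 of 6 olfactory bulb, 4 of 6 astrocyte, 4 of 6 mural and 3 of 5 endothelial markers. Called were 2 of 6 neuron, 3 of 10 choroid plexus, 2 of 7 cerebellar, 1 of 5 thalamic, 1 of 3 pituitary and 1 of 3 pineal markers, and 0 of 5 hypothalamic ones. Between BN-Lx/Cub and SHR/OlaIpcv all 4 blood markers differed. Of the other lists Snap25 (neurons), Mobp (oligodendrocytes), Aqp1 (choroid plexus) and Abcc9 (mural cells) differed between these parents, and BN-Lx/Cub had the second lowest neuron list mean of 74 strains (13.80). The part of cell composition in the channel results was not tested.

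Of the 69 strains with 2 or more animals, 34 were highest and 37 lowest for at least 1 channel gene. LEXF1C/Stm was lowest for 5 (5.75%, against 3.26% of all genes). SR/JrHsd was highest for 6 (6.9%, against 1.05%) and lowest for 4 (4.6%, against 1.91%), and HXB24/Ipcv was highest for 8 (9.2%, against 1.25%). In the authors' reconstructed rn6 annotation 42 channel genes had a named transcript matched to an Ensembl one, on 14 chromosomes. This is not the number of channel genes in Ensembl, as the v5 table of Ensembl genes held 80.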
